A study of Mus musculus with 12 samples.

Results

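CD11bhi CD14hi moDC, a lung population sorted as monocyte-derived dendritic cells (DC) and called CD14hi moDC below, were set against the mean of the 3 other DC populations sorted from the same kind of inflamed lung. The population is represented by 3 of 12 arrays. The genes followed most closely were those whose 3 CD14hi moDC arrays all lay above, or all below, the 9 other arrays. These were 375 genes above and 201 below among 10929 tested, which is 5.27% of them, and they are called apart in what follows.

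All mice were C57BL/6J males of 8 to 12 weeks that had received 100 ng of lipopolysaccharide, a bacterial cell wall component, together with 100 ug of the protein ovalbumin in 50 ul through the airway, and their lungs were taken 16 h later. No untreated mice are among the samples analysed here, so every value is one of an inflamed lung. Also sorted were CD11bhi Ly6Chi moDC (Ly6Chi moDC, which the titles call inflammatory) and a pair of conventional DC (cDC) populations, one of them CD103+ (CD103+ cDC) and the other CD11bhi CD14lo (CD14lo cDC). Each array held RNA pooled from 20 mice, with a sort purity of over 93% and 50 ng of RNA amplified, and the labels leave unsaid if arrays numbered alike share a pool of mice. In RNA from pooled sorted cells, more cells that carry a message and more message per cell cannot be told apart.

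Monocytes that enter an inflamed tissue can take on features of DC and of macrophages. Such cells are known as strong producers of chemokines and inflammatory mediators in the tissue itself, whereas conventional DC, which depend on the growth factor receptor Flt3, are known for carrying antigen to lymph nodes. CD14 is a co-receptor for lipopolysaccharide, Ly6C marks recently recruited monocytes, and macrophages that stay in a tissue add complement, scavenger and matrix functions. These are background facts, and none of them was measured here.

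Signals are MAS5 intensities in arbitrary units, and means are given ± SD over 3 arrays. A log2 difference is that of log2(signal + 50.0003), given ± SE from the limma fit, so that folds of dim genes are understated. The adjusted p values come from limma, over the 10929 genes and two-sided, and a gene was called under 0.05. The CD14hi moDC arrays correlated at 0.9766 to 0.9805 with each other across genes, which are not independent replicates. Their mean correlation was 0.931 with Ly6Chi moDC, 0.9304 with CD14lo cDC and 0.857 with CD103+ cDC arrays. The median signal of an array was 96.7 to 109 in CD14hi moDC and 72.4 to 103.8 in the others. The 3' to 5' ratio of the Gapdh controls, a sign of RNA quality, was 1.52 to 1.80 against 1.48 to 3.27.

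The sort markers in the titles are given here at the level of RNA, with C5ar1 and Dpp4 beside them. The title of Ly6Chi moDC gives no level of CD14. Cd14 was 11277, 9409 and 14322 in CD14hi moDC, 10965, 9073 and 12468 in Ly6Chi moDC, 1714, 1257 and 1639 in CD14lo cDC and 875, 596 and 1432 in CD103+ cDC. The Cd14 values of both moDC populations thus overlapped (log2 difference 0.10 ± 0.23, adjusted p = 0.83), and both lay above those of both cDC populations. A probe set shared by Ly6c1 and Ly6c2, which the annotation could not assign to either gene, was 66.6 to 349.7 in CD14hi moDC and 9975 to 11208 in Ly6Chi moDC. Itgae, which encodes CD103, was 140.1 ± 19.5 in CD14hi moDC against 15178 ± 2597 in CD103+ cDC. Itgam, which encodes CD11b, was 1479.5, 1493 and 1470.1, above the 1115 ± 222 of CD14lo cDC without being called against them (adjusted p = 0.15). C5ar1, the receptor for complement fragment C5a, was 15194 ± 1286 in CD14hi and 13294 ± 927 in Ly6Chi moDC (adjusted p = 0.75). The peptidase gene Dpp4 was 1444 ± 439, between the 3794 ± 121 of CD14lo cDC and the 339 ± 50.4 of Ly6Chi moDC. Against the mean of all 3 others Dpp4 was not called (adjusted p = 0.058), but it was with each array centred on its median (adjusted p = 0.024).

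The DC genes Flt3 and Zbtb46 held an intermediate place. Not every conventional DC gene did, as Kmo and Ass1 further below show. Flt3 was 753 ± 88.4 in CD14hi moDC, 113 ± 34.3 in Ly6Chi moDC, 2513 ± 246 in CD14lo cDC and 6749 ± 891 in CD103+ cDC, and no array of these 4 groups overlapped another group's. Zbtb46, a transcription factor gene of conventional DC, gave the same order, with 189 ± 63.3 in Ly6Chi moDC, 1424 ± 254 in CD14hi moDC, 3001 ± 534 in CD14lo cDC and 4535 ± 695 in CD103+ cDC. Zbtb46 in CD14hi moDC was higher than in Ly6Chi moDC (log2 difference 2.65 ± 0.20, adjusted p = 1.7e-08) and lower than in CD14lo cDC (adjusted p = 9.2e-04). Against the mean of the 3 others Zbtb46 was not called (adjusted p = 0.97), as that mean takes in differences of opposite sign.

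**Figure D1:**
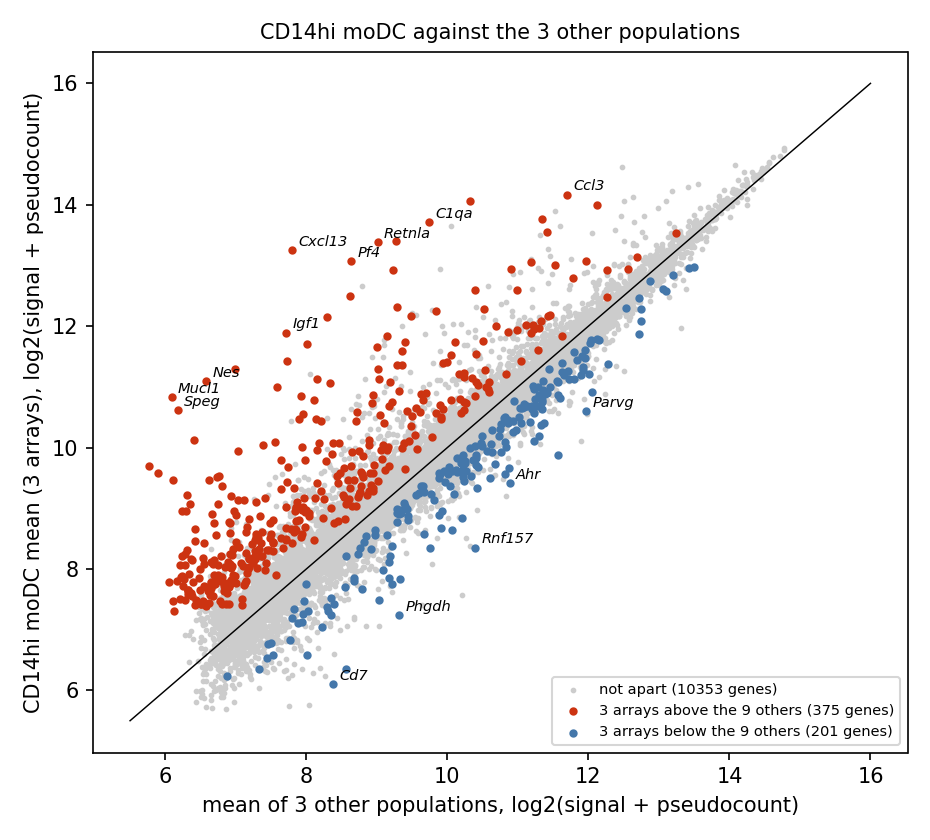
Each point is a gene, with the mean of the 3 CD14hi moDC arrays on the vertical axis against the mean of the 3 other population means on the horizontal axis, both as log2(signal + pseudocount). The 375 genes in red have all 3 CD14hi moDC arrays above the 9 others and spread far from the diagonal, while the 201 in blue have them below and stay close to it.

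Against the mean of the others, 1231 genes were called higher in CD14hi moDC, 11.3% of those tested, and 749 were called lower, 6.85%. At least 2-fold differences were called for 453 higher genes (4.14%) and 113 lower ones (1.03%). This balance depended on the scaling: with each array centred on its median, the median log2 difference of all genes moved from 0.01 to -0.18, and 732 genes were called higher and 1553 lower. The share of calls that were higher was 62.2% as deposited, 56.3% with quantile normalization and 32.0% with median centring. The number called lower was also 451 without CD14hi moDC replicate 1 and 456 without replicate 2. Taken one at a time, CD14hi moDC had 2215 genes called higher (20.3%) and 1851 lower (16.9%) than CD103+ cDC. Against CD14lo cDC these were 1010 (9.24%) and 760 (6.95%), and against Ly6Chi moDC 1248 (11.4%) and 745 (6.82%). These 3 comparisons share the CD14hi moDC arrays. Called in the same direction against each of the 3 were 215 genes higher (1.97%) and 65 lower (0.595%). The first number was 129 and 130 without CD14hi moDC replicate 1 or 2, and the second was 39 and 40 without the same arrays and 42 without Ly6Chi moDC replicate 1.

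With the arrays as deposited, more genes lay apart above than below, but with median centring the order turned, to 198 above and 625 below. The 375 genes above (3.43%) had a median log2 difference of 1.10, from 0.21 to 5.46, with 218 at 2-fold or more and 67 at 4-fold or more. For the 201 genes below (1.84%) the median was -0.54, from -2.28 to -0.13, with 30 at 2-fold or more and 4 at 4-fold or more. By the same rule CD103+ cDC had 1303 genes above and 1329 below, Ly6Chi moDC 804 and 1050, and CD14lo cDC 295 and 190. The rule used the same arrays as the test, so it is a description that 350 of the genes above and 162 of those below were also called. Of the genes above, 41 passed the filter on signal only through the CD14hi moDC arrays and so had to be high there. With quantile normalization 300 of the 375 and 181 of the 201 genes were still apart in the same direction, and with median centring 197 and 194, where the filter and the probe set of each gene were chosen anew after the scaling. Without CD14hi moDC replicate 3 the rule gave 565 genes above, and without CD14hi moDC replicate 1, 2 or 3 it gave 338, 348 or 362 below, as a rule over fewer arrays is easier to meet.

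The genes Cxcl13, Mucl1, Nes and Speg, which the earlier results on these arrays had put forward as markers of CD14hi moDC, had the largest log2 differences of all genes that were apart. Cxcl13 encodes a chemokine that attracts B cells through the receptor CXCR5. Its signal was 11189, 12850.3 and 6448 in the 3 CD14hi moDC arrays, 559, 131 and 137 in CD103+ cDC, 298, 76.3 and 108 in CD14lo cDC and 123, 207 and 159 in Ly6Chi moDC. No other array came near the CD14hi moDC arrays, and the fitted fold was 44.1 (log2 difference 5.46 ± 0.33, adjusted p = 1.8e-09). Nes encodes nestin, an intermediate filament protein best known from neural progenitors. It was 2109.9, 2349 and 1976 in CD14hi moDC and ranged over 9.51 to 80.8 on the 9 other arrays (log2 difference 4.51 ± 0.21). Mucl1, a small mucin-like secreted protein gene, was 1820.3, 2101 and 1439 against 1.67 to 84.1 (log2 difference 4.74 ± 0.20). Speg, a gene of the muscle kinase family, was 2006, 1285 and 1367 against 1.99 to 87.8 (log2 difference 4.44 ± 0.24). Other probe sets of Speg were also apart above, but with smaller log2 differences of 0.85, 1.39 and 1.48. Those of Cxcl13 (5.72) and Nes (4.37 and 3.61) lay nearer to the values above. None of the 4 showed an order among the 3 other populations that their arrays kept apart, except that Mucl1 in Ly6Chi moDC, at 1.67 to 3.68, was below both cDC populations. On none of the 9 other arrays was Mucl1 above the array median, so that order is one among dim signals.

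With those, the genes with the widest gap to the nearest other array were Tcim, Col14a1, Slco2b1 and Klhl13. Tcim, a small regulator of transcription and immune signalling, was 837, 762 and 745 in CD14hi moDC and at most 13.8 elsewhere. Col14a1, a collagen that associates with larger fibrils, was 844, 819.8 and 526 against at most 14.8. The uptake transporter gene Slco2b1 was 2487, 2969 and 2007 against 23.9 to 199, and Klhl13, an adaptor of a ubiquitin ligase, 882, 862 and 366 against 10.6 to 40.2. All of these genes were chosen for their distance from the other arrays, so their calls are a description. Nes, Mucl1, Tcim, Col14a1 and Klhl13 were also among the 41 genes that passed the filter only through the CD14hi moDC arrays. The lowest of the 3 CD14hi moDC arrays of Klhl13, replicate 3, was still 366.

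**Figure D2:**
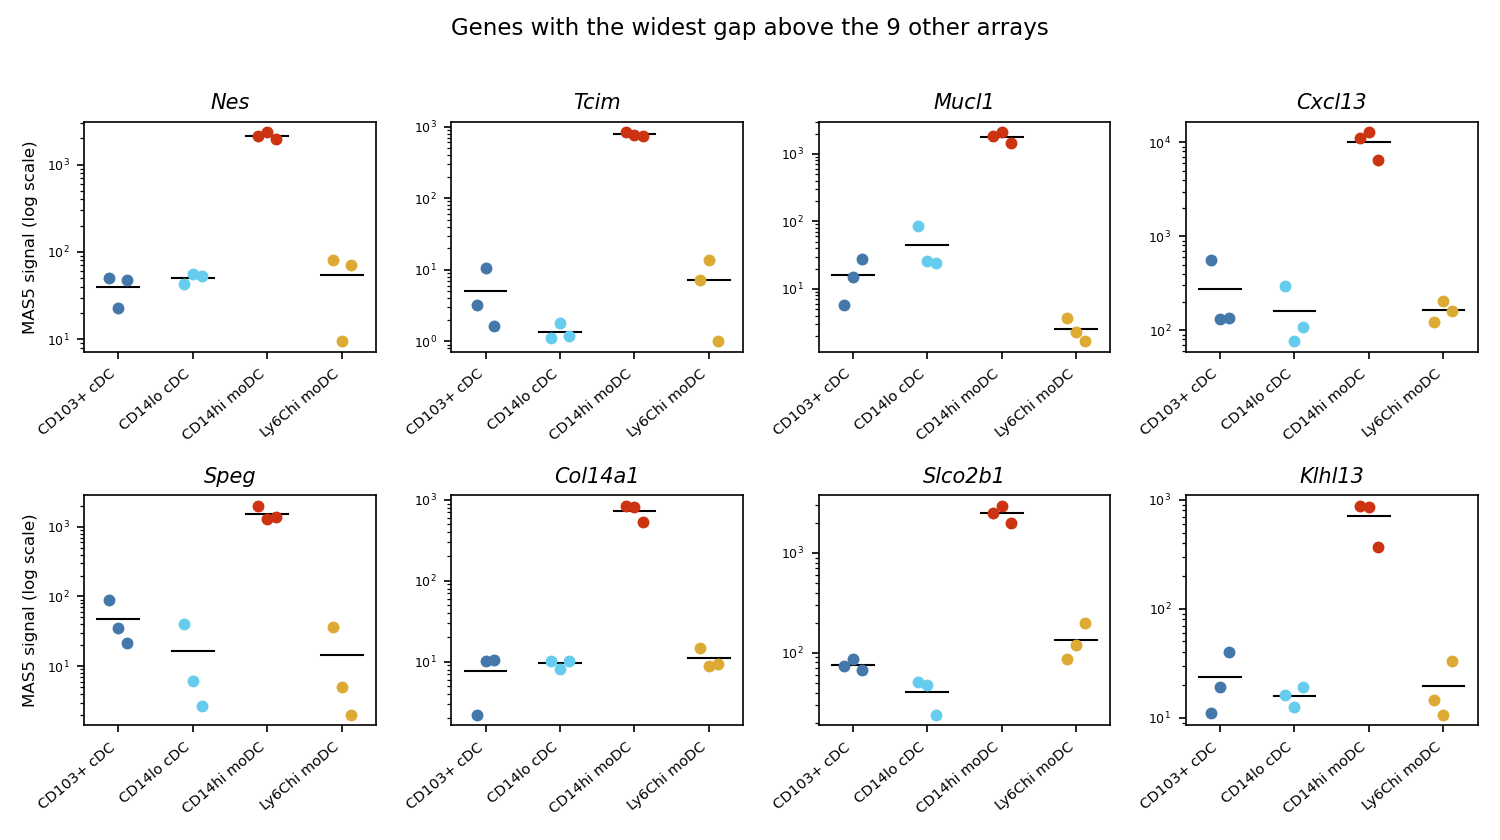
MAS5 signal on a log scale for the 8 genes with the widest gap between the CD14hi moDC arrays and the nearest of the 9 other arrays, with a point per array and a line at the mean of each population. In every panel the 3 CD14hi moDC arrays stand clear of the rest, as for Nes at 1976 to 2349 against 9.51 to 80.8.

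The promoters of Cxcl13 and Nes are shown because these genes had the widest separation by fold and by gap. They are RefSeq sequences on GRCm38.p6, each from 250 bases before to 50 bases after the annotated start, 5′ to 3′ on the strand of the gene. Capitals mark any match to 3 motifs: TGANTCA, which AP-1 factors are known to bind, and GAGGAAGT, which PU.1 is known to bind, each on both strands, and TATAAA on the gene's strand. The first lies at chr5:95956689-95956988 and the second at chr3:87970843-87971142, both on the plus strand.
Cxcl13: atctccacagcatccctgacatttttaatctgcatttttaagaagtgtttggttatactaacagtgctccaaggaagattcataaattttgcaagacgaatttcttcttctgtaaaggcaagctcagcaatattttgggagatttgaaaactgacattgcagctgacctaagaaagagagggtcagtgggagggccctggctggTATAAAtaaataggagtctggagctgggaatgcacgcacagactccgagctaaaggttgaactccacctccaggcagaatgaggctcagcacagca
Nes: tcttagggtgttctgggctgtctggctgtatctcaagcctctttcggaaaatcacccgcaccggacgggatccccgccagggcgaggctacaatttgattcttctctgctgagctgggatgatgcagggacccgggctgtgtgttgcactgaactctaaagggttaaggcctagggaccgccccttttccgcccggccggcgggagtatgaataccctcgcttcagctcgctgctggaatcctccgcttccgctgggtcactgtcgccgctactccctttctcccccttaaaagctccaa
The Cxcl13 window holds TATAAA at bases 205 to 210, counted from its 5′ end, and the Nes window holds none of the 3 motifs. RefSeq windows matched 294 of the 375 genes above and 163 of the 201 below. Over the 382 windows of the genes above, 7.85% held TATAAA, 7.85% the AP-1 motif and 4.97% the PU.1 motif. Over the 11422 windows of all genes tested with a RefSeq match these shares were 4.42%, 5.17% and 3.31%, and over all 32851 windows 8.32%, 7.81% and 3.20%. The 212 windows of the genes below held them in 4.25%, 8.49% and 5.19%. A match describes letters only, and the shares were not tested.

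Chemokine ligand genes were among the clearest of the groups: 12 of 15 tested CC chemokine genes and 8 of 13 CXC and other chemokine genes were called higher, and 0 and 2 lower. Their median log2 differences were 1.20 and 1.77 against 0.01 for all genes, and 0.39 and 0.52 against Ly6Chi moDC alone. Over all genes tested 11.3% were called higher and 6.85% lower, and each list count in this report is to be read beside these shares. The genes that were apart were Ccl3, Ccl4, Ccl8 and Ccl12 of the first list and Cxcl1, Cxcl13, Cxcl14, Pf4 and Ppbp of the second. Pf4 encodes platelet factor 4 and was 8775, 9552 and 7390.1 in CD14hi moDC. Its next population was Ly6Chi moDC with 1577, 2328 and 2258, while the cDC arrays ranged over 31.0 to 302. The log2 difference of Pf4 from the mean of the others was 4.43 ± 0.34, and that from Ly6Chi moDC 2.05 ± 0.41 (adjusted p = 0.0016). Its chromosomal neighbour Ppbp, which encodes another platelet chemokine, was 229, 218 and 254 against 46.7, 106 and 88.6 in Ly6Chi moDC and 11.6 to 18.3 in CD14lo cDC.

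Ccl8, which attracts monocytes and T cells, was 3043, 4256 and 1529 in CD14hi moDC and 302, 782 and 509 in Ly6Chi moDC, and at most 135 on the cDC arrays (log2 difference from all 3.71 ± 0.31, from Ly6Chi moDC 2.33 ± 0.38). Ccl3 and Ccl4, inflammatory chemokine genes that lie next to each other on chromosome 11, were graded over the populations. From CD103+ cDC, at 1184 ± 475, Ccl3 went to 3414 ± 1346 in CD14lo cDC, 9360.5 ± 986 in Ly6Chi moDC and 18548 ± 3403 in CD14hi moDC (against Ly6Chi moDC adjusted p = 0.011). Ccl4 followed with 1465 ± 419.7, 2049 ± 570.03, 4118 ± 100.3 and 8549 ± 1373 (adjusted p = 0.0012). Both genes were thus highest in CD14hi moDC, whose arrays overlapped with no others, and next in Ly6Chi moDC. Cxcl1, an attractant of neutrophils, was 13899.8, 11533 and 16936 against 5574, 3704 and 7282 in Ly6Chi moDC (adjusted p = 0.022). Cxcl14, an attractant of monocytes and other leukocytes, was 1312, 1785 and 1111 against 463, 496 and 807 there (adjusted p = 0.0056).

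Other chemokines were shared by both moDC populations rather than apart in one. Ccl2, the ligand of the monocyte receptor CCR2, was 12804 ± 884 in CD14hi and 11102 ± 3051 in Ly6Chi moDC against 498 ± 167 in CD14lo cDC and 175 ± 95.1 in CD103+ cDC, and the difference between both moDC was not called (log2 difference 0.24 ± 0.29, adjusted p = 0.65). Ccl7, another ligand of CCR2, was similar, with 6606 ± 1758 and 4491 ± 1362 (adjusted p = 0.21). Ccl12 was apart by the letter of the rule, at 11678, 11731 and 9228 against 8102, 9159.8 and 7484 in Ly6Chi moDC, but the lowest and highest of these arrays nearly touch. That difference was not called (log2 difference 0.39 ± 0.22, adjusted p = 0.25), and Ccl12 was no longer apart with quantile normalization or median centring. The 2 genes called lower, or 1 without CD14hi moDC replicate 2, were the interferon-induced chemokine genes Cxcl9 (2051 ± 276 against 3905 ± 211 in Ly6Chi moDC) and Cxcl11 (212 ± 74.8 against 604 ± 83.6).

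Growth factor genes were called higher for 12 of 18 tested and lower for 0, with 5 apart (median log2 difference 0.80). By population, the median of the list was 1.37 against CD103+ cDC, 1.17 against CD14lo cDC and -0.005 against Ly6Chi moDC. Igf1, which encodes insulin-like growth factor 1, was 3839.8, 3947 and 3502 in CD14hi moDC, 929, 592 and 705 in Ly6Chi moDC and 33.4 to 84.2 on the 6 cDC arrays. Its log2 difference was 4.18 ± 0.17 from the mean of the others and 2.29 ± 0.21 from Ly6Chi moDC (adjusted p = 2.5e-07). The platelet-derived growth factor genes Pdgfc and Pdgfb were apart in different ways: Pdgfc was 544, 551 and 390.3 against 52.8 to 111 in Ly6Chi moDC and at most 24.3 in the cDC, whereas Pdgfb was 843, 1139 and 851 against 266 to 541 on the 9 others. Pdgfa, another member of the family, was highest in Ly6Chi moDC at 1514 ± 235 and 799 ± 141 in CD14hi moDC. Gas6 and Pros1, which encode ligands that bridge dying cells to receptors such as Mertk, were 504 ± 73.0 and 1520.2 ± 444 in CD14hi moDC. In Ly6Chi moDC they were 275 ± 32.6 (adjusted p = 0.015) and 982 ± 44.4 (adjusted p = 0.061), and Pros1 was no longer apart with median centring. Inhba, a subunit of activin, was called higher too, but was highest in Ly6Chi moDC (2450.1 ± 1549 against 805 ± 355), and its call was lost without CD14hi moDC replicate 1 (adjusted p = 0.10) or 3 (0.062).

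Genes of the extracellular matrix and of the proteases that cut it were called higher for 22 of 37 tested and lower for 0. Of these genes 12 were apart and 12 were called higher against each of the 3 populations (median log2 difference 0.59). Against Ly6Chi moDC alone the median of the list was 0.09. Only 14 were called higher with the stricter filter on signal, which tests fewer genes. Mmp12, the macrophage elastase, was 5683, 5911 and 5573 in CD14hi moDC. It was 1895, 976 and 716 in Ly6Chi moDC, 1503, 689 and 586 in CD14lo cDC and 0.59 to 19.6 in CD103+ cDC (log2 difference from all 3.87 ± 0.25, from Ly6Chi moDC 2.32 ± 0.31). Its neighbour on chromosome 9, the collagenase gene Mmp13, was 1414, 927 and 919.7 against 206, 129 and 124 in Ly6Chi moDC and at most 11.5 in the cDC. Timp2, an inhibitor of such proteases, was 5041, 5349 and 3478 against 1673, 1187 and 2197 (adjusted p = 2.0e-04). Mmp12, Mmp13 and Timp2 were thus all highest in CD14hi moDC, with no overlap of arrays.

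The promoters of Mmp12 and Mmp13 are given since these neighbouring genes were apart together, a pair noticed after the values were seen. RefSeq lists 2 starts for Mmp12, at chr9:7344147-7344446 and chr9:7347124-7347423, and 1 for Mmp13, at chr9:7272264-7272563, all on the plus strand of GRCm38.p6.
Mmp12, first start: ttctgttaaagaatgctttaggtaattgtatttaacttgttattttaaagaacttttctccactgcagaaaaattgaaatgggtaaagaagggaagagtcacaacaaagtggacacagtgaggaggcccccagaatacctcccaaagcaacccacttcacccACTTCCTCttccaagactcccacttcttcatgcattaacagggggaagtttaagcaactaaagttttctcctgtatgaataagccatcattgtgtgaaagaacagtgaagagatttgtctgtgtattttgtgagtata
Mmp12, second start: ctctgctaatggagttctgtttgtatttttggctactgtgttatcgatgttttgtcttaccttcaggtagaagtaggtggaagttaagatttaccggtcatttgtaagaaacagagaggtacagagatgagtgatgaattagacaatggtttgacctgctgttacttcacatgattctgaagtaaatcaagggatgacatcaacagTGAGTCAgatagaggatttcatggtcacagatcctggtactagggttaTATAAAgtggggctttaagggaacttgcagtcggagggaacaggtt
Mmp13: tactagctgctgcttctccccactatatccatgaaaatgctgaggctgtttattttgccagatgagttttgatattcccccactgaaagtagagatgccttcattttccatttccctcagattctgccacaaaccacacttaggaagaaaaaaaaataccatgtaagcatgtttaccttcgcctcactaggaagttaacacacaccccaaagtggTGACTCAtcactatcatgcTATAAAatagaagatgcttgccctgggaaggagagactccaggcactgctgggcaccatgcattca
Capitals mark the same motifs as above. The first Mmp12 window has the PU.1 letters on the opposite strand at bases 163 to 170. The second has TGANTCA at 207 to 213 and TATAAA at 255 to 260. The Mmp13 window has TGANTCA at 216 to 222 and TATAAA at 235 to 240. Which start was in use was not measured.

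Structural matrix genes were also among those apart. Olfml3 was 3319, 4153 and 2587 against 1297, 1843 and 2196 in Ly6Chi moDC and at most 68.0 in the cDC. The microfibril gene Mfap4 was 462, 408 and 399 against 20.7 to 186, and the proteoglycan gene Bgn 607, 355 and 249.8 against 64.6 to 223. Bgn was no longer apart with quantile normalization or median centring, nor were Olfml3 and Mgp with median centring. Several of these genes are also known as fibroblast genes, and the fibroblast marker list moved the same way: 7 of 11 tested members were called higher and 0 lower, with 5 apart, and 2 were called higher with the stricter filter on signal. The summed signal of all 14 fibroblast markers was 6901 to 8267 in CD14hi moDC, 3693 to 5526 in Ly6Chi moDC, 2381 to 2822 in CD103+ cDC and 1985 to 2437 in CD14lo cDC, so every CD14hi moDC array was above all others. The members called higher included Inmt (1692, 1239 and 1128 against 169 to 369.8), Mfap4, Npnt (287 ± 121 against 77.6 ± 65.3 in CD103+ cDC) and Mgp (3851, 4658 and 3689.9 against 2171, 3144 and 3502 in Ly6Chi moDC). The fibroblast collagen gene Col1a1 was 105 to 326 in CD14hi moDC and 104 to 225 elsewhere, and Lum, which did not pass the filter, was at most 25.0 on any array. Pdgfra, the receptor that marks many fibroblasts, also did not pass the filter, at 80.4 to 110.2 in CD14hi moDC and 24.3 to 76.7 in the others. The part of fibroblast RNA in the matrix and growth factor results was not tested. Smooth muscle, endothelial and epithelial markers gave 2 of 7, 1 of 7 and 0 of 11 called higher, and 1, 1 and 2 called lower. For neutrophil, B cell, and mast cell, basophil and eosinophil markers these were 1 of 5, 1 of 4 and 0 of 2 higher and 0 lower. The neutrophil call was lost with median centring and without CD14hi moDC replicate 1. The B cell call was lost with quantile normalization and median centring, without any one of the CD14hi moDC arrays, and without CD103+ cDC replicate 1 or 3, CD14lo cDC replicate 1 or 3, or Ly6Chi moDC replicate 1 or 2. The smooth muscle call lower was lost without CD14hi moDC replicate 1 or 2, and 1 of its 2 calls higher without replicate 1. The endothelial call lower was lost without CD14hi moDC replicate 2 or 3 or Ly6Chi moDC replicate 3, and the call higher with median centring.

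Genes known from tissue macrophages were the only one of the lists tested here in which every tested member was called higher: 24 of 24, with 9 apart and a median log2 difference of 2.18. The summed signal of this list was 143872 to 162890 in CD14hi moDC, 114285 to 133517 in Ly6Chi moDC, 46419 to 53438 in CD14lo cDC and 5709 to 9095 in CD103+ cDC. By population, the median log2 difference of the list was 4.38 against CD103+ cDC, 2.08 against CD14lo cDC and 0.37 against Ly6Chi moDC. C1qa, which encodes a chain of the complement component C1q, was 12615, 14209 and 13267 against 6786, 7833 and 5246 in Ly6Chi moDC (log2 difference 1.02 ± 0.28, adjusted p = 0.014) and 376 to 924 in CD14lo cDC. C1qc, a second chain, was 17126 ± 1841 against 10475 ± 912, a difference from Ly6Chi moDC that was not called (adjusted p = 0.12), and C1qb arrays overlapped between both moDC (25495 ± 3896 and 20667 ± 2053). Adgre1, which encodes F4/80, was 3741, 3931 and 3209 against 1879, 2263 and 2878 (adjusted p = 0.013). The separation of C1qc, Adgre1 and Tmem119 was lost with median centring. Fcrls, an Fc receptor-like gene that was not on the list, was 3658, 5623 and 4413 against 342, 685 and 773 in Ly6Chi moDC and 901, 699 and 335 in CD14lo cDC.

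For other macrophage genes the difference between the 2 moDC populations was not called. Apoe was 4732 ± 516 in CD14hi and 5175 ± 1137 in Ly6Chi moDC (adjusted p = 0.88), Trem2 1359 ± 325 and 1154 ± 268 (adjusted p = 0.66), and the engulfment receptor gene Mertk 828 ± 272 and 889 ± 201 (adjusted p = 0.83). The transcription factor gene Maf was 4075 ± 395 and 5442 ± 436 (adjusted p = 0.19). Fcgr1, the high-affinity Fc receptor gene, was lower in CD14hi than in Ly6Chi moDC, at 4363 ± 48.2 against 8246 ± 989 (adjusted p = 0.0033). Fc receptor genes were called higher than the mean of the others for 5 of 6, complement genes for 9 of 12, scavenger and apoptotic cell receptors for 14 of 21 and pattern recognition receptors for 16 of 25. Of these 4 lists only C1qa, C1qc and Mrc1 were apart above, and the median against Ly6Chi moDC alone was -0.23, 0.18, 0.07 and -0.31. The lectin gene Clec4d was called higher than the mean of the others, but it was 7365 ± 226 in Ly6Chi moDC against 3779 ± 639 in CD14hi moDC (adjusted p = 0.048). Monocyte genes were called higher for 7 of 19, or 3 with median centring and 4 without CD14hi moDC replicate 1, and lower for 1, or 3 with median centring. The 1 was Plac8, at 1611 ± 944 against 10709 ± 1777 in Ly6Chi moDC and 8064 ± 1303 in CD14lo cDC.

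**Figure D3:**
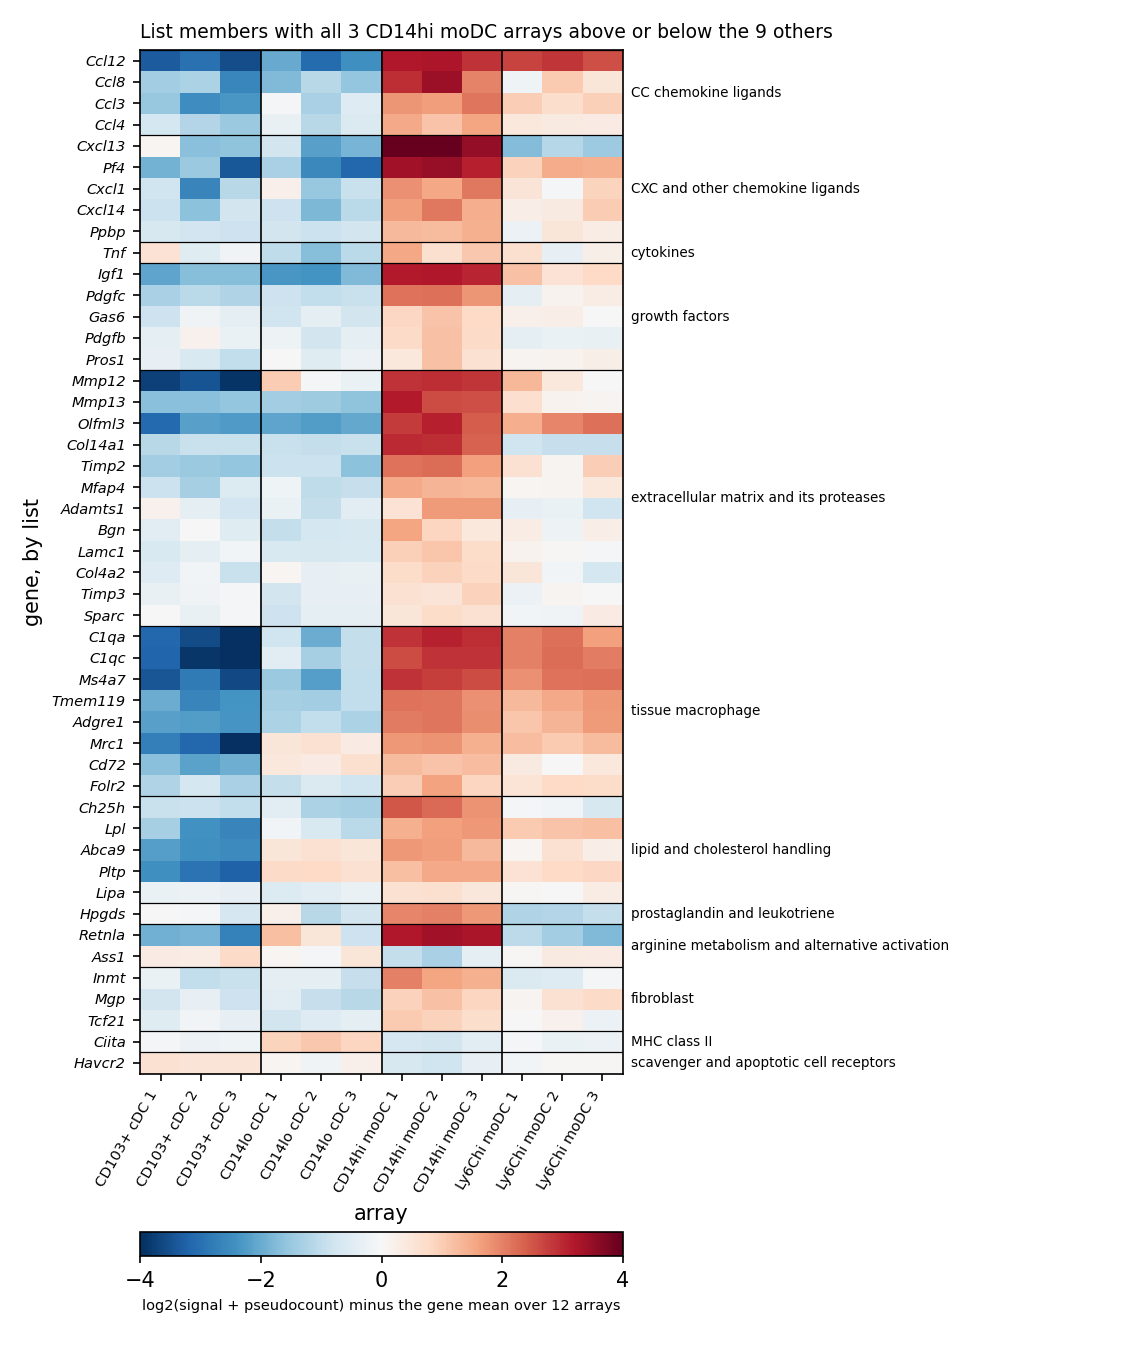
Heat map of 48 list members that were apart, with a column per array and a row per gene grouped by list, where colour is log2(signal + pseudocount) minus the gene's mean over the 12 arrays. The CD14hi moDC columns are the reddest in every row other than Ass1, Ciita and Havcr2, where they are the bluest, while the Ly6Chi moDC columns come next in many rows.

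Alternative activation gave a split picture, and the list as a whole had 3 of 14 called higher and 3 lower, or 6 lower with median centring. Retnla encodes a secreted protein that interleukin 4 and 13 induce in macrophages. It was 10126, 11387 and 10592 in CD14hi moDC, 2506, 1478 and 578 in CD14lo cDC, 489, 369.9 and 272 in Ly6Chi moDC and 240.4, 251 and 118 in CD103+ cDC (log2 difference 4.38 ± 0.29, adjusted p = 4.7e-09). Its next population was CD14lo cDC, whose 3 arrays differed widely, and from these the log2 difference was 2.99 ± 0.35 (adjusted p = 6.2e-06). The lectin gene Mgl2 was shared by the same 2 populations (4897 ± 299 and 3085 ± 1652, adjusted p = 0.11) and low in the others, at 492 ± 147 and 423 ± 183. Mrc1, the mannose receptor gene, was 6197 ± 809 against 4434 ± 366 in Ly6Chi moDC, which was not called (adjusted p = 0.17), and its separation was lost with median centring. Ass1, which encodes an enzyme that rebuilds arginine, was apart below, at 74.6, 48.4 and 135 against 187 to 359.5.

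Lipid genes were called higher for 12 of 22 tested and lower for 0, with 5 apart (median log2 difference 0.71, against Ly6Chi moDC alone 0.39). Ch25h, the enzyme that makes 25-hydroxycholesterol, was 2216, 1899 and 1365 against 112 to 329.8 on the 9 others (log2 difference 2.92 ± 0.20, adjusted p = 8.2e-09). Its neighbour on chromosome 19, the lysosomal lipase gene Lipa, was also apart, by a smaller step (4576 ± 329 against 3366 ± 417 in Ly6Chi moDC, adjusted p = 0.024). The transporter gene Abca9 was 2465, 2342 and 1791 against 1001 to 1106 in CD14lo cDC and 738 to 1089 in Ly6Chi moDC. Lipoprotein lipase, Lpl, was 11961 ± 1396 against 8604 ± 471 (adjusted p = 0.25), and the lipid transfer protein gene Pltp 16449 ± 1873 against 10323 ± 969.8 (adjusted p = 0.0065). Lpl, Lipa and Pltp were no longer apart with median centring. Cd36, a fatty acid and scavenger receptor gene, was shared with CD103+ cDC, at 7408 ± 472 and 7544 ± 665, and low in the others, at 923 ± 223 and 990.1 ± 244.

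Genes of prostaglandin and leukotriene synthesis were called higher for 9 of 17 and lower for 0. Against Ly6Chi moDC alone their median log2 difference was -0.09. The one apart was Hpgds, the hematopoietic prostaglandin D synthase, at 1079, 1131 and 909 in CD14hi moDC against 242, 223 and 132 in CD103+ cDC, 283, 84.7 and 126 in CD14lo cDC and 77.1, 80.3 and 99.7 in Ly6Chi moDC. Hpgds was called against each of the 3, and its largest pair difference was the one from Ly6Chi moDC (3.00 ± 0.27). Lysosome genes were called higher for 11 of 22, or 7 with median centring, and the median log2 difference from Ly6Chi moDC alone was -0.08. Pparg, a nuclear receptor gene that alveolar macrophages need, was 538, 666 and 598 against 427, 327 and 444 in Ly6Chi moDC (adjusted p = 0.066) and 418, 344 and 322 in CD14lo cDC, a separation lost with median centring. The summed signal of 14 alveolar macrophage markers was 11424 to 15784 in CD14hi moDC, 11291 to 14209 in Ly6Chi moDC and 6634 to 17611 in CD14lo cDC, so these groups overlapped. Of 13 tested, 4 were called higher, and Siglecf, which defines alveolar macrophages, was 314 to 447 in CD14hi moDC and 223 to 529 elsewhere. Within the sum, members went different ways between both moDC. Fabp4 was 1608 to 2744 in CD14hi moDC, 163 to 325 in Ly6Chi moDC and 1538 to 2696 in CD14lo cDC. Marco was 509 to 844 against 95.3 to 102 in Ly6Chi moDC, but overlapped with both cDC. Chil3 was 524 to 1653 in CD14hi moDC against 5519 to 7347 in Ly6Chi moDC.

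Cd4 was apart as well. The co-receptor gene was 749, 673 and 565 in CD14hi moDC, 185, 142 and 141 in CD14lo cDC, 7.11, 8.87 and 113 in CD103+ cDC and 4.03 to 9.52 in Ly6Chi moDC (log2 difference 2.85 ± 0.25, adjusted p = 1.8e-07). Of the T cell receptor complex genes, Cd3d was 25.3 to 51.7 in CD14hi moDC and 43.4 to 91.5 in the other arrays, and Cd3e and Cd3g were at most 51.5 and 44.0 in CD14hi moDC. None of these 3 passed the filter. The summed signal of 10 T cell markers was 5024 to 5870 in CD14hi moDC, 5572 to 5876 in CD103+ cDC, 3988 to 4904 in CD14lo cDC and 2335 to 3372 in Ly6Chi moDC. By this sum the CD14hi moDC arrays overlapped with CD103+ cDC and lay above both other populations. Cd4 itself is among the 10 markers summed, so the place above CD14lo cDC cannot be read apart from Cd4. The part of T cell RNA in the Cd4 result was not tested. Cd4 was the only one of 5 tested markers called higher, and 2 were without Ly6Chi moDC replicate 1.

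Inflammatory cytokine genes were called higher for 6 of 19 and lower for 0. Their median log2 difference was 0.40 against the mean of the others and 0.0006 against Ly6Chi moDC alone. Tnf was 3959, 2104 and 2869 in CD14hi moDC, 2093, 1044 and 1551 in Ly6Chi moDC, 2019.9, 922 and 1204 in CD103+ cDC and 632, 374 and 597 in CD14lo cDC. The lowest CD14hi moDC array was thus just above the highest of the others, and Tnf was called against each of the 3 (against Ly6Chi moDC adjusted p = 0.032), although its separation was lost with median centring. Tnfsf13b, the gene of the B cell survival factor BAFF, was also called against each of them, at 1201, 984 and 739.9 against 496, 387 and 749 in CD103+ cDC, 153 to 161 in CD14lo cDC and 198 to 222 in Ly6Chi moDC, with a slight overlap of arrays. Il10 was 389 ± 191 and 349.8 ± 185 in the moDC populations (adjusted p = 0.83) against at most 30.4 in the cDC. Il6 followed the same division, at 1082 ± 396 and 1106 ± 559 against 255 ± 136 and 353 ± 97.9. Il1b was not called (log2 difference 0.34 ± 0.16, adjusted p = 0.16).

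Genes of DC maturation were called higher for 6 of 21 and lower for 2, and only some of them are described here. The 2 lower became 0 without CD14hi moDC replicate 2 and 1 without CD14hi moDC replicate 1 or 3, CD103+ cDC replicate 1 or 3, CD14lo cDC replicate 1 or 2, or Ly6Chi moDC replicate 1. Ccr7, the receptor that guides DC to lymph nodes, was 14561 ± 3286 in CD14hi moDC, 14474 ± 1159 in CD14lo cDC, 27133 ± 4077 in CD103+ cDC and 936 ± 428 in Ly6Chi moDC. Against CD14lo cDC Ccr7 was not called (log2 difference -0.01 ± 0.26, adjusted p = 0.98), while it was lower than in CD103+ cDC (adjusted p = 0.0092) and higher than in Ly6Chi moDC (log2 difference 3.99 ± 0.26). The chemokine gene Ccl22 gave the same contrast, at 17302 ± 2971 against 669.7 ± 323 in Ly6Chi moDC. Cd200r1, an inhibitory receptor gene, was the one member apart (861, 1296 and 1087 against 151 to 805), a separation lost with median centring. Cell cycle genes were called higher for 2 of 28, Mcm2 and Mcm3, which is 7.14% and under the 11.3% of all genes. Both calls were lost with median centring (adjusted p = 0.10 and 0.32) and without CD14hi moDC replicate 1 (0.13 and 0.14) or 2 (0.13 and 0.29). Mcm3 also lost its call without replicate 1 or 3 of any of the other populations. Immediate early genes were called higher for 7 of 25, or 2 with median centring and 4, 3 and 2 without CD14hi moDC replicate 1, 2 and 3, and 4 without Ly6Chi moDC replicate 1. Myc and Ier2 of that list were apart by small steps (0.38 and 0.37 on the log2 scale), and both lost their call without any one of the CD14hi moDC arrays (adjusted p from 0.071 to 0.17).

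**Figure D4:**
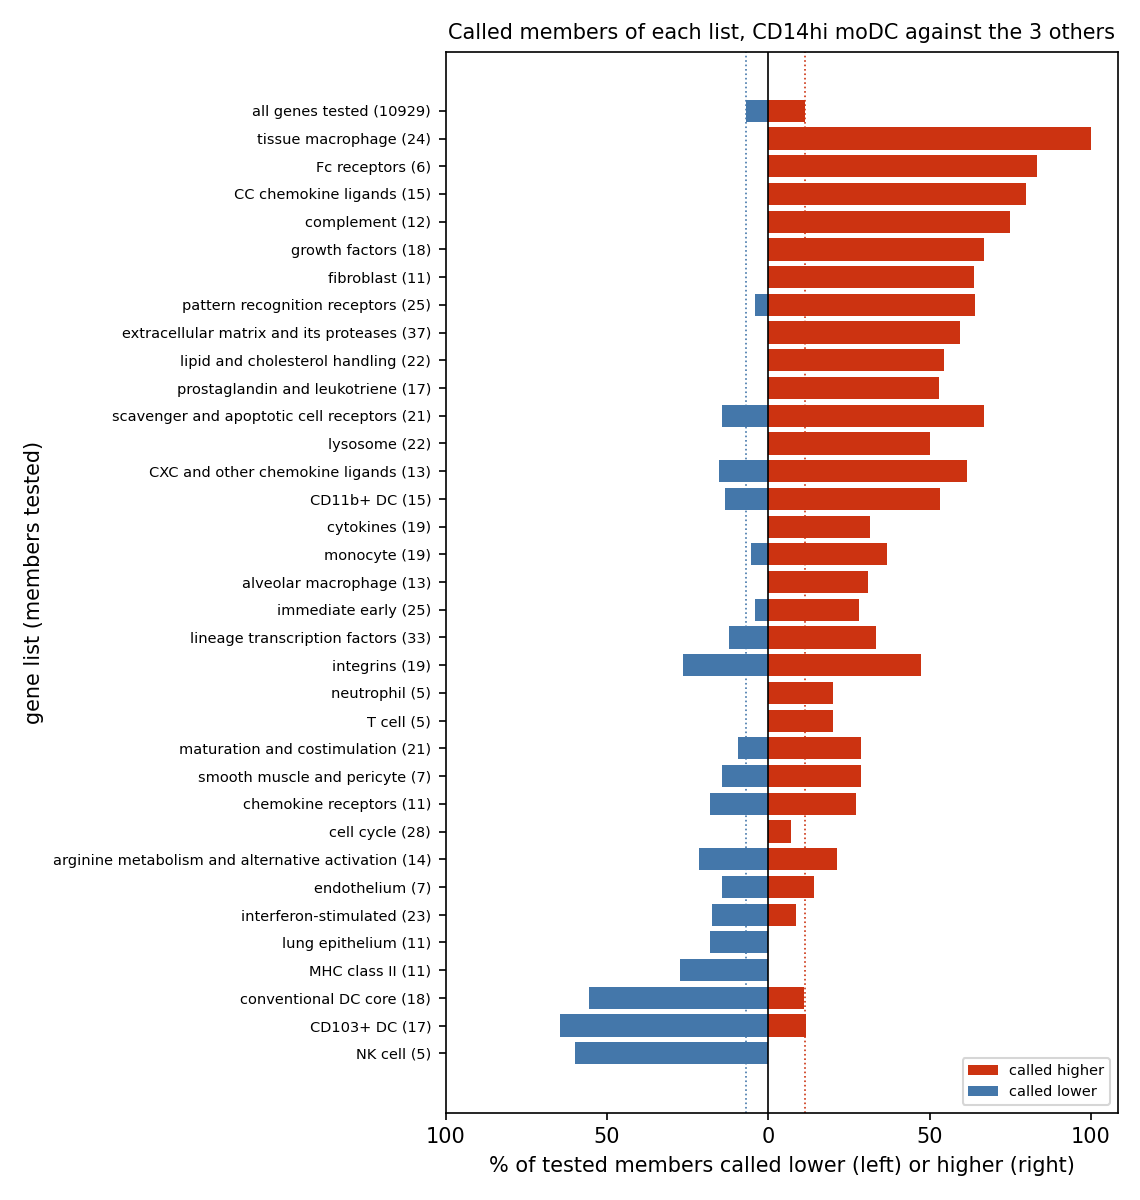
Share of the tested members of each list called higher (red, to the right) or called lower (blue, to the left) in CD14hi moDC against the mean of the 3 others, in percent, with the number tested in brackets and dotted lines at the shares over all genes (11.3% and 6.85%). Macrophage, Fc receptor and CC chemokine lists reach furthest to the right, and the conventional DC lists and the NK cell list furthest to the left.

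Among the genes below, differences were smaller. Only Parvg had a gap of over 1 on the log2 scale between the CD14hi moDC arrays and the nearest other array. Parvg encodes gamma-parvin, a leukocyte protein that links integrins to actin, and was 1465, 1346 and 1721 in CD14hi moDC against 3799.6, 3689 and 4222 in CD103+ cDC, 4070.3, 3894 and 3726 in CD14lo cDC and 4099, 3554 and 4673 in Ly6Chi moDC. The arrays of the 3 other populations overlapped, and those of CD14hi moDC lay below them (log2 difference -1.37 ± 0.11, adjusted p = 6.5e-08). Phgdh, the first enzyme of serine synthesis, was 134, 102 and 75.7 against 459.7, 483 and 301, 533, 829.7 and 387 and 933, 823 and 903 in the same order (log2 difference -2.07 ± 0.20, adjusted p = 3.8e-07). Here Ly6Chi moDC were highest, and the log2 difference between both moDC was the largest of the 3 ( -2.62 ± 0.24).

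Dgat2, Dna2 and Dock5 had the pattern of Parvg, with overlapping arrays among the 3 others. Dgat2, which makes the last step to triglycerides, was 396, 234 and 388 against 693 to 860.1. The nuclease and helicase gene Dna2 was 717, 717 and 866 against 1448 to 2669, and Dock5, an activator of the small GTPase Rac, 362, 372 and 509 against 862 to 1774. Each of the 3 was called against each population. Other probe sets of Parvg (log2 difference -0.91) and Dock5 (-0.99 and -1.16) were apart below too. Those of Dgat2 (-0.70) and Dna2 (-0.62 and -0.96) were called lower but were not apart. Treml4, a receptor gene of the TREM family, was 158, 111 and 309.6 against 476 to 786.

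Other genes below differed widely among the 3 others. Ahr, the aryl hydrocarbon receptor gene, was 637 ± 89.8 in CD14hi moDC against 1315 ± 173 in Ly6Chi moDC, 1751 ± 28.7 in CD14lo cDC and 2726 ± 274 in CD103+ cDC (log2 difference -1.47 ± 0.12, adjusted p = 8.7e-08). The glutaminyl cyclase gene Qpct was 717 ± 126 against 2660.1 ± 359 in CD103+ cDC and 1378 ± 76.1 in CD14lo cDC. Rnf157, a ubiquitin ligase gene, was 226, 352 and 266 against 478, 587 and 562 in Ly6Chi moDC, with 4035 ± 220.03 in CD103+ cDC. Ahr, Qpct and Rnf157 were lower than in each of the 3 by the test. Another probe set of Ahr (log2 difference -0.82) was called lower but was not apart. Those of Rnf157 were all called lower, and only some of them were apart. The surface receptor gene Cd7 had the largest log2 difference of those below, -2.28 ± 0.22, but Cd7 was highest by far in CD14lo cDC: the values were 36.5, 8.10 and 14.2 in CD14hi moDC, 79.0, 43.9 and 54.3 in CD103+ cDC and 1299, 2422 and 1637 in CD14lo cDC. Against CD103+ cDC alone Cd7 was not called (adjusted p = 0.066). Likewise Tbc1d10c, a regulator of Ras and calcineurin signalling, was 6.67, 53.4 and 44.0 against 61.7, 85.9 and 68.1 in Ly6Chi moDC (adjusted p = 0.14), and Notch4 48.7, 54.6 and 35.8 against 59.7, 77.2 and 77.4 in CD14lo cDC (adjusted p = 0.31). The hepatocyte growth factor receptor gene Met was 279, 213 and 343 against 498, 531 and 359 in CD14lo cDC (adjusted p = 0.055) and 1102 ± 212 in Ly6Chi moDC.

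**Figure D5:**
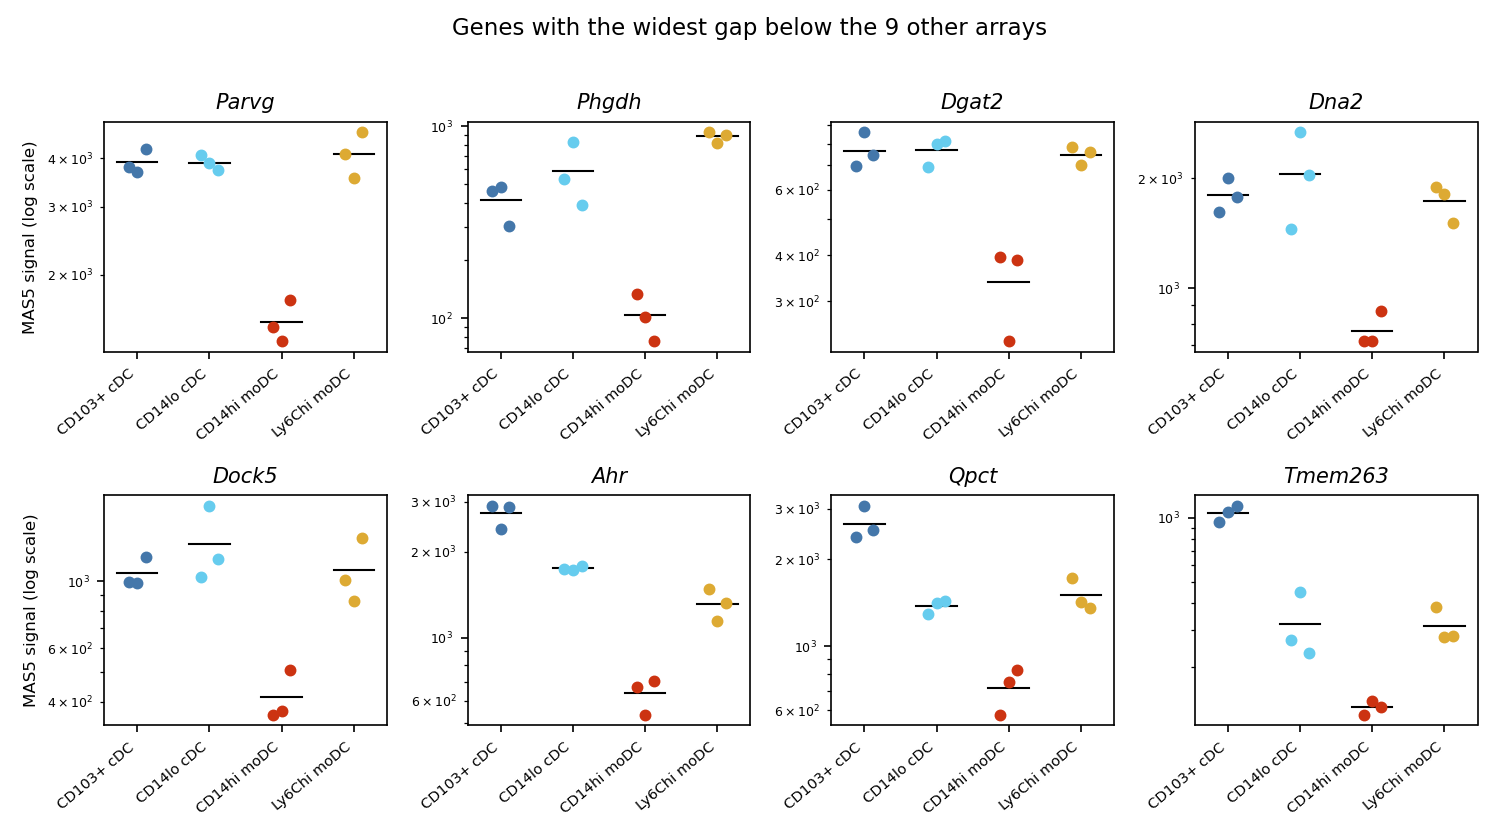
MAS5 signal on a log scale for the 8 genes with the widest gap below the nearest of the 9 other arrays, with a point per array and a line at the mean of each population. The points of the other 3 populations overlap for Parvg, Dgat2, Dna2 and Dock5, while Ahr, Qpct and Tmem263 are highest in CD103+ cDC.

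Some genes below were bright with small steps. Tuba4a, an alpha tubulin gene, was 7195, 7704 and 9084 against 9660.2 to 14645 (log2 difference -0.52 ± 0.10), and Nfkbie, an inhibitor of NF-kappa B, 6143, 5533 and 6983 against 7054 to 9422 (-0.45 ± 0.11). Nfkbie lost its call without CD14hi moDC replicate 2 (adjusted p = 0.076). Pabpn1, a poly(A) binding protein gene, was 7499, 7527 and 6941 against 7838 to 12151, but the mean over its probe sets was not called (adjusted p = 0.58), it lost its call without CD14hi moDC replicate 1, 2 or 3 (0.059 to 0.097), and it was no longer apart with quantile normalization. Ifi35, an interferon-induced gene, was 7818, 7701 and 8103 against 8987 to 14132. Of 23 interferon-stimulated genes 4 were called lower, 17.4% against 6.85% of all genes, and 2 higher, 8.7% against 11.3%, with 1 higher without CD14hi moDC replicate 1 or with median centring. Gbp2 was apart above, though not with median centring, without being called (3034, 2915 and 3314 against 2068 to 2895, adjusted p = 0.071).

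Of 11 tested MHC class II genes, which serve antigen presentation, 0 were called higher and 3 lower, or 27.3% against 6.85% of all genes. Ciita, the master regulator of class II genes, was apart below, at 940.1, 896 and 1128 in CD14hi moDC against 1466, 1304 and 1349 in CD103+ cDC, 2868, 3268 and 2829 in CD14lo cDC and 1491, 1255 and 1307 in Ly6Chi moDC (log2 difference -0.82 ± 0.11, adjusted p = 4.2e-05). H2-Ob and H2-Oa, which encode the chains of a peptide loading inhibitor, were 664 ± 37.0 and 797 ± 347, below both cDC populations and above the 283 ± 95.4 and 217 ± 5.30 of Ly6Chi moDC. H2-Oa lost its call without CD14hi moDC replicate 1 (adjusted p = 0.20) or 2 (0.060). Havcr2, which encodes the receptor TIM-3, was apart below at 1685, 1507 and 2103 against 2419 to 4054.

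Conventional DC core genes were called lower for 10 of 18 and higher for 2, and CD103+ DC genes lower for 11 of 17 and higher for 2. The last was 1 with either other scaling, and without CD14lo cDC replicate 3, CD14hi moDC replicate 2 or 3, or Ly6Chi moDC replicate 1. The shares called higher, 11.1% and 11.8%, were near the 11.3% of all genes. By population, the median log2 difference of the core list was -1.59 against CD103+ cDC, -1.09 against CD14lo cDC and 0.82 against Ly6Chi moDC. For the CD103+ DC list these medians were -2.465, -0.17 and 0.11. Kmo, of the tryptophan pathway, was 548 ± 126 and 636 ± 63.5 in the moDC against 3224 ± 201 and 2664 ± 228 in the cDC, and the stem cell factor receptor gene Kit 87.3 ± 40.4 and 55.7 ± 24.9 against 582 ± 161 and 1457 ± 136. Only Ass1 of these lists was apart. Among the genes called higher was Cadm1, an adhesion gene known from CD103+ DC, which was 2868 ± 693 in CD14hi moDC, not called against the 3811 ± 816 of CD103+ cDC (adjusted p = 0.15), and 262 ± 48.4 and 49.3 ± 20.7 in CD14lo cDC and Ly6Chi moDC. CD11b+ DC genes were called higher for 8 of 15 and lower for 2, or 0 lower without CD14hi moDC replicate 1 or 2. NK cell markers were called lower for 3 of 5, or 0 with 2-fold required, led by Klrd1 (1036 ± 309 against 6418 ± 383 in CD14lo cDC). Klre1 lost its call without any one of the CD14hi moDC arrays (adjusted p from 0.12 to 0.16) and without most other single arrays. The summed signal of the NK cell markers was 2820 to 3919 in CD14hi moDC against 10750.3 to 13315 in CD14lo cDC and 2584 to 2849 in Ly6Chi moDC. Against Ly6Chi moDC alone the median log2 difference of the NK cell list was 0.30. Integrin genes went both ways, with 9 of 19 higher, or 5 with median centring, and 5 lower, or 3 without CD14hi moDC replicate 1 or 2. Itga9 was 2346 ± 439 and 1536 ± 382 in the moDC against at most 218 in the cDC, and Itgb7, a partner of CD103, 1107 ± 433 against 6111 ± 588 in CD103+ cDC.

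The population nearest to CD14hi moDC differed from gene to gene. For 205 of the 375 genes above, 54.7%, the highest of the 3 others was Ly6Chi moDC, for 98 it was CD14lo cDC and for 72 CD103+ cDC. Over all genes tested, Ly6Chi moDC was the highest of the 3 in 38.3%. Other probe sets of the same genes gave a second reading that the rule had not used. Of 302 such probe sets for 169 genes above, 291 were higher in CD14hi moDC, 213 called so, 163 apart and 0 called lower. Of 212 for 118 genes below, 173 were lower, 70 called so, 32 apart and 0 called higher. They can share sequence with the first ones and came from the same RNA. At the edge of the rule, Septin11 (3701 as the lowest CD14hi moDC array against 2190.4 to 3697 in CD14lo cDC) was just inside above and Aldh1a2 (4740.1 to 5642 against 4095 to 4742 in CD103+ cDC) just outside. Frg1 (2285 to 2569 against 2581 to 3598) was just inside below and Scyl3 (338 to 452 against 452 to 983) just outside.

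Several genes above lie next to each other on a chromosome, by the RefSeq order of protein-coding genes. These pairs were noticed after their values were seen and carry no test. Among the pairs are Ccl3 and Ccl4, and Ccl8 and Ccl12, on chromosome 11, Pf4 and Ppbp on chromosome 5, and Mmp12 and Mmp13 on chromosome 9. Others are C1qa and C1qc on chromosome 4, Ch25h and Lipa on chromosome 19, and the potassium channel genes Kcnj9 and Kcnj10 on chromosome 1. The last pair was 159.9, 150.3 and 119.7 for Kcnj9 against 4.06 to 71.0, and 748, 640.5 and 337 for Kcnj10 against 3.83 to 115. The Schlafen family gave a pair below, Slfn1 (1275, 1171 and 1411 against 1421 to 5104) and Slfn3 (25.4, 62.6 and 42.8 against 68.9 to 215), with 1 gene between them. Other neighbours were apart in opposite directions, such as Bcl2l2 above and Pabpn1 below on chromosome 14, and Skp2 above and Nadk2 below on chromosome 15.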

How the data were processed

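The deposited values are signal intensities of 12 mouse expression arrays, made by the authors with MAS5 per the submitters' processing notes. Its version was not given in the sources used. Every deposited array had a 2% trimmed mean intensity of 500.003, so the arrays are scaled to each other, and a method that scales to a trimmed mean can shift all genes of a population that has many changed genes.

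Of 45101 probe sets, 64 were controls, 34945 had 1 gene symbol in the platform annotation and could be named, 932 had several and 9160 had none. A probe set was kept where its intensity was above the median of its array on at least 3 of 12 arrays. Of each gene the kept probe set with the highest mean was used, which gave 10929 genes. Values were log2(signal + 50.0003), with 10% of the trimmed mean as pseudocount. All 12 arrays were fitted with limma 3.58.1 in R 4.3.3 (lmFit, eBayes with an intensity trend, 8 residual degrees of freedom), with the contrast of CD14hi moDC against the mean of the 3 other population means and 3 pair contrasts. P-values were adjusted by Benjamini-Hochberg over all genes, and the procedure was tested on simulated data. Array data hold no counts, and the number of arrays limits the precision.

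Genes named were the 15 with the largest differences above and below, the 8 with the widest gap on each side, the 8 brightest above and 5 brightest below, the sort and study markers, up to 6 separated and 4 called members of each list, and the 2 genes just inside and just outside the rule. Other genes named were chosen after their values were seen. The members and lists were chosen with earlier results of these data known. The labels do not say whether arrays with the same replicate number share mice. Not every same-number pair of arrays correlated at over 0.1, the criterion for pairing, so the numbers were used as a block only in an alternative fit. Nothing in the labels says more of the mice than the pooling, so p-values measure the spread between these pooled samples. Alternatives were other scalings, pseudocounts, filters, probe set rules, fits and each array left out.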

Additional observations from a re-analysis of the deposited data

How the results depend on the processing

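The balance of higher and lower counts turned with median centring, for calls and for genes apart. Sign changes were counted among 167 named genes, and only where a gene was called in the main or the alternative run. By that count 0 changed sign. Against the mean of the others, the 1231 genes called higher were 732 with median centring, 811 with the filter at the 75th percentile and 453 with at least 2-fold required, and the 749 lower were 1553 with median centring and 113 with 2-fold. Requiring 2-fold gave 991 higher and 720 lower against CD103+ cDC, 523 and 240 against CD14lo cDC, 647 and 198 against Ly6Chi moDC, and 115 and 10 against each of the 3. The 75th percentile filter, which tests fewer genes, gave 643 higher against CD14lo cDC, 786 against Ly6Chi moDC, 100 against each of the 3 and 176 apart above. Median centring gave 769 higher and 2580 lower against Ly6Chi moDC, 160 lower against each of the 3, and 198 apart above with 625 below. The cause of these shifts was not tested. Leaving out 1 array at a time gave 824 to 1309 higher and 451 to 790 lower against the mean, 1803 to 2266 and 1511 to 1876 against CD103+ cDC, 753 to 1049 and 500 to 806 against CD14lo cDC, and 942 to 1283 and 470 to 802 against Ly6Chi moDC. It gave 129 to 224 and 39 to 73 against each of the 3, and 390 to 565 above with 210 to 362 below apart. The lowest lower counts were 500 against CD14lo cDC without CD14hi moDC replicate 1 and 470 against Ly6Chi moDC without Ly6Chi moDC replicate 3. Of 167 named genes, 23 lost their call without 1 array, each of them without a CD14hi moDC array.

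Same replicate numbers correlated at -0.11 to 0.24 after removal of the group means, over 0.1 in 8 of 18 pairs of arrays, against 4 of 36 pairs with different numbers. This did not meet the criterion for pairing, and whether such arrays share mice was not settled. With the replicate number as a block, 1276 genes were called higher and 801 lower against the mean of the others. The block gave 2277 and 1908 against CD103+ cDC, 1036 and 813 against CD14lo cDC, 1275 and 784 against Ly6Chi moDC, and 226 and 74 against each of the 3. Of the 167 named genes only Dpp4 changed its call with the block (adjusted p = 0.040). Dim genes, many near the pseudocount, are measured least well.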

Other observations

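Outside the 10929 genes tested, 7264 genes did not pass the filter on signal. Without the filter, limma called 170 of these higher and 30 lower in CD14hi moDC than the mean of the others, and 140 were apart above and 39 below. The myelin gene Mag was 186, 228 and 86.2 in CD14hi moDC and 2.94 to 41.4 on the other arrays. Ifnb1, which encodes interferon beta, was 327, 77.5 and 219 against 4.18 to 71.1 (log2 difference 1.60 ± 0.26, limma adjusted p = 5.3e-04 over all genes without the filter), so the second array lay just above the highest of the others. Lgr4, a receptor gene of the R-spondin family, was 118, 107 and 79.1 against 1.98 to 33.0. All 3 genes were chosen after their values were seen. Of 4000 kept probe sets with several gene symbols or none, 107 had the CD14hi moDC arrays above the 9 others and 45 below, and they remain unnamed here.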
